A study of Mus musculus with 4 samples.

Results

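Epidermal growth factor (EGF) family ligands, their ERBB receptors and the receptor inhibitor Errfi1 were examined in RNA sequencing of whole mouse uterus collected on gestational day 4. The 9 genes, chosen by symbol, were the ligands Areg, Hbegf, Ereg, Btc and Tgfa, the receptors Egfr, Erbb2 and Erbb3, and Errfi1. Of these, 8 were among the 19991 genes of the deposited TPM table. Ereg was below that table's total count cut and was read from the count table of 57186 genes, and 8 members passed the filter for testing among 20950 genes. The tested animals were Pgr gecKO (genotype Prss29Cre/Cre;Pgrf/f, 2 libraries), in which Cre from both Prss29 alleles, active in uterine glands, acts on floxed Pgr, the progesterone receptor gene. The controls were wild type (WT, 2 libraries) and carry no Cre. Loss of Pgr, the presence of Cre and the altered Prss29 alleles cannot be told apart in this design, and the labels used here give neither strain nor age. Whether the libraries of a group are different mice is not stated, and the p-values reflect only how far these libraries differ, which may be technical.

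EGF family ligands are made as membrane-bound precursors that proteases such as ADAM17 release. The ligands chosen here bind EGFR or ERBB4, which pair with other ERBB receptors and signal through the MAP kinase and PI3 kinase relays. ERBB2 binds no known ligand and acts as a partner, while ERBB3 has a weak kinase and binds neuregulins. In the mouse uterus Areg is a progesterone-induced epithelial gene, Hbegf marks luminal epithelium next to the attaching blastocyst, and Errfi1 (also called Mig-6) is a progesterone-responsive inhibitor of EGFR. The comparison asks whether uterine RNA of these genes differs when the gland epithelium lacks the progesterone receptor.

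The libraries held 31901278 and 29932153 counts in Pgr gecKO replicates 1 and 2 and 35149834 and 33843256 counts in WT replicates 1 and 2. Values in CPM are counts scaled to library size by TMM, a normalisation against the bulk of genes. Values in TPM are the deposited length-scaled levels, without TMM. The TMM factors were 1.038 and 0.9381 in Pgr gecKO and 0.9893 and 1.038 in WT. CPM and TPM can therefore order the libraries of a gene differently. Pgr itself was at 130.1 and 146.2 CPM in Pgr gecKO uteri and at 140.5 and 138.6 CPM in WT uteri, in a tissue whose stroma and muscle also transcribe it, which leaves a deletion limited to glands unchecked. Prss29, the Cre locus, had 0 and 0 counts in Pgr gecKO uteri, against 1524 and 190 counts in WT uteri. Markers of uterine epithelium (6 of 6), stroma (7 of 7) and smooth muscle (6 of 6) had more than 3 counts in every library, and of the 4 embryo markers Cdx2 had 0 counts in all libraries, Pou5f1 2 and 0 in Pgr gecKO uteri and 1 and 0 in WT uteri, and Nanog 0 and 0 in Pgr gecKO uteri and 0 and 7 in WT uteri. The remaining embryo marker, Elf5, had 125 and 46 counts in Pgr gecKO uteri and 48 and 115 counts in WT uteri. Libraries of the same group differed in the RNA of tissue markers. Summed smooth muscle markers were at 5477.6 and 9008.9 CPM in Pgr gecKO uteri and at 6827.3 and 2138.6 CPM in WT uteri, and the 3 adipocyte markers summed to 0 and 11.5 CPM in Pgr gecKO uteri and to 0.0576 and 1.88 CPM in WT uteri.

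Among the members, Areg and Errfi1 are shown with their promoters because theirs were the windows in which any motif searched was found. RefSeq promoter windows (GRCm38.p6, 250 bases before to 50 after the gene start) were found for 6 of 9 members, 7 windows in all. Hbegf, Ereg and Erbb3 had none. The upper-case letters mark the cAMP response element TGACGTCA and the TATA box TATAAA, searched on both strands without overlap between them. Areg lies at chr5:91139349-91139648, plus strand, and the Errfi1 window is the downstream of its 2 starts at chr4:150854820-150855119, plus strand.
Areg: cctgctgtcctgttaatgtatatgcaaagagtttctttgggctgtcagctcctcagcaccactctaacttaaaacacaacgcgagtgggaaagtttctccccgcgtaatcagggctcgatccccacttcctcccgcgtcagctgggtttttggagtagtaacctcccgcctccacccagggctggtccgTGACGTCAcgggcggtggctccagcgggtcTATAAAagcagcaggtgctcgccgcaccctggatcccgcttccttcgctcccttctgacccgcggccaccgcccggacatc
Errfi1: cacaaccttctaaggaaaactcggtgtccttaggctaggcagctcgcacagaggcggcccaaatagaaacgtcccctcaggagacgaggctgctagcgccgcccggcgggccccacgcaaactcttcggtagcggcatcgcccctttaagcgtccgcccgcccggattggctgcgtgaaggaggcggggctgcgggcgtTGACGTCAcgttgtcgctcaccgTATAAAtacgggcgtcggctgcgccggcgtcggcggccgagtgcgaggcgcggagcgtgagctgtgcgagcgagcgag

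In both windows the cAMP response element stood a short way before the TATA box. It began 61 bases before the gene start in Areg and 51 bases before it in Errfi1, and the TATA box began 31 and 28 bases before it in that order. Of 32851 promoters of the same length, 1.79% held TGACGTCA and 13.6% held TATAAA. The windows of Btc, Tgfa, Egfr, Erbb2 and the upstream start of Errfi1 held neither. The AP-1 site TGANTCA, the full progesterone response element, its half-site AGAACA and the oestrogen response element matched in none of the 7 windows, against 7.81%, 0.00913%, 19.0% and 0.07% of all promoters in that order. A match describes letters only, and the genome of these windows is an older build than the GRCm39 of the counts.

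No member differed detectably between the groups at this depth and number of libraries. Of the 8 members tested, 0 were called higher and 0 lower (edgeR quasi-likelihood test, Benjamini-Hochberg adjusted over all genes, threshold 0.05), where 0.00477% of all genes tested were called, a single gene, Gbp2b, named after its values were seen. Every member's adjusted p was 1.0, and 0 of the 8 had an unadjusted p under 0.05, against 3.01% of all genes (1.22% higher and 1.79% lower in Pgr gecKO uteri). DESeq2 likewise called 0 members, against 0.403% of the genes it tested. In 3 of the 8 members the libraries of the groups did not overlap in CPM, as in 25.3% of all genes. They were Errfi1 and Erbb2, higher in both Pgr gecKO libraries (12.2% of all genes did so), and Erbb3, lower in both (13.1% of all genes). The median log2 fold change, Pgr gecKO over WT, was -0.153 over the members and 0.006 over all genes tested.

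**Figure D1:**
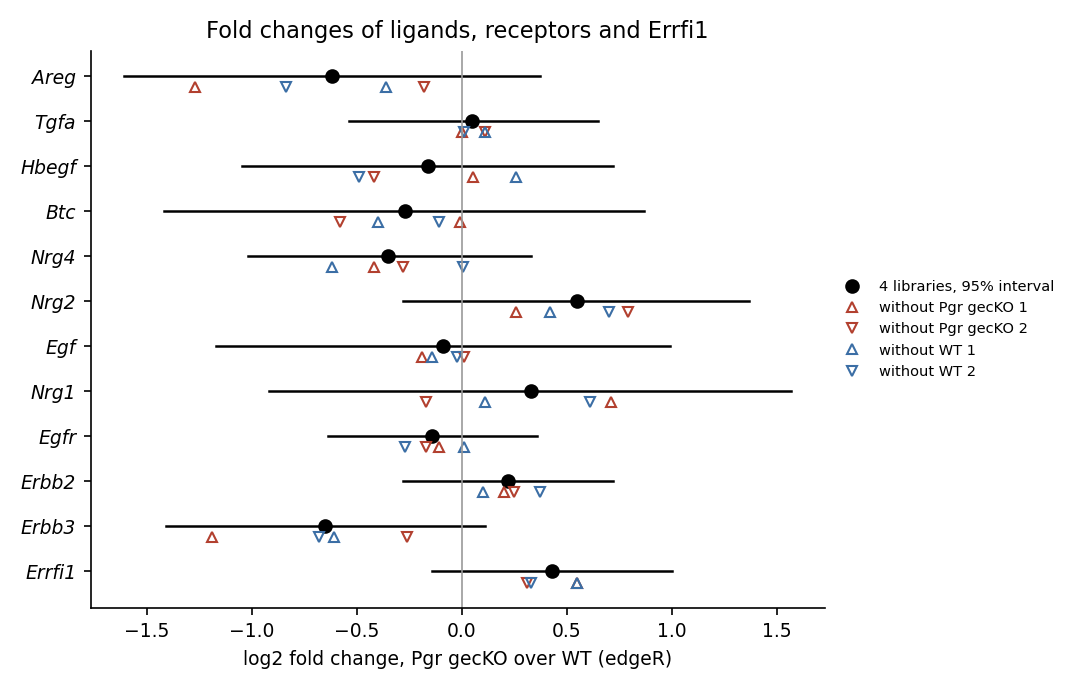
Log2 fold change (x axis, Pgr gecKO over WT) of each tested ligand, receptor and Errfi1 from the edgeR fit, with the 95% interval as a line and the estimates without each library as triangles. Every interval of the 4-library fit includes 0, and the estimates of Areg and Erbb3 move most when a Pgr gecKO library is left out, from -1.27 to -0.18 for Areg and from -1.19 to -0.26 for Erbb3.

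On the length-scaled level, Errfi1 was far above every ligand and receptor in all libraries. Errfi1, the inhibitor, was at 213.8 ± 4.44 TPM in Pgr gecKO uteri and 165.6 ± 16.3 TPM in WT uteri (SD, n = 2 each, as for all means here). In Pgr gecKO uteri the order of mean TPM below it was Erbb2, Areg, Erbb3, Egfr, Tgfa, Hbegf and Btc, and in WT uteri it was Erbb3, Areg, Erbb2, Egfr, Tgfa, Hbegf and Btc. The libraries of Areg, Erbb3 and Egfr overlapped within Pgr gecKO uteri, and those of Erbb3, Areg and Erbb2 within WT uteri, so these neighbours do not differ beyond their spread. Tgfa, Hbegf and Btc kept their places in both groups, each below every library of Egfr. Tgfa was above Hbegf within each library, though across the WT libraries their values overlapped, which they did not across the Pgr gecKO libraries. Btc was the lowest of the 8 in all 4 libraries.

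**Figure D2:**
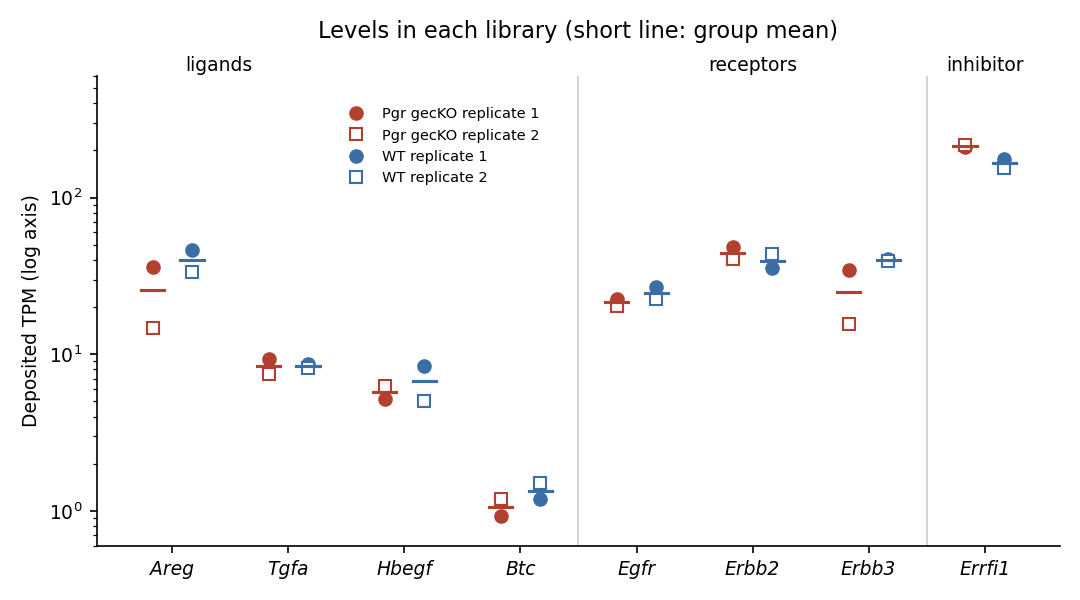
Deposited TPM (y axis, log scale) of the 8 members in the TPM table in each Pgr gecKO library (left of each pair) and WT library, with short lines at group means. Errfi1 stands highest at 154.1 to 217.0 TPM and Btc lowest at 0.928 to 1.5 TPM, and the open red squares of Areg and Erbb3 lie below their other 3 libraries.

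Among ligands, Areg had the highest TPM in all 4 libraries and, of the tested member ligands, the widest gap between the Pgr gecKO libraries in log2 CPM. Areg, which encodes amphiregulin, was at 36.3 and 14.8 TPM in Pgr gecKO uteri and at 46.2 and 33.6 TPM in WT uteri. In CPM it was at 13.4 and 6.27 in Pgr gecKO uteri and at 17.5 and 12.7 in WT uteri. The groups overlapped, with Pgr gecKO replicate 1 among the WT libraries and Pgr gecKO replicate 2 below all others. The log2 fold change was -0.62 (SE 0.42, 95% interval -1.61 to 0.37, unadjusted p = 0.181 and adjusted p = 1.0 by the edgeR quasi-likelihood test). Without Pgr gecKO replicate 2 it was -0.18, and without Pgr gecKO replicate 1 it was -1.27. Taken relative to the summed epithelial markers of the same library, Areg had 10.5 and 3.83 CPM per 1000 CPM of markers in Pgr gecKO uteri and 13.5 and 8.37 in WT uteri, so Pgr gecKO replicate 2 remained the lowest. The exact two-sided permutation p of that ratio was 0.667, in a design that cannot go below 0.333.

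Tgfa, which encodes transforming growth factor alpha, was the steadiest ligand. It was at 18.3 and 17.1 CPM in Pgr gecKO uteri and at 17.6 and 16.6 CPM in WT uteri, and the groups interleaved. Its fold change of 1.04 had a 95% interval from 0.686 to 1.57. Hbegf, the heparin-binding ligand, was at 7.59 and 10.5 CPM in Pgr gecKO uteri and at 12.7 and 7.61 CPM in WT uteri. WT replicate 1 was the highest, and its group mate lay beside the lowest. The log2 fold change of -0.16 (95% interval -1.05 to 0.72) turned to 0.26 without WT replicate 1 and to 0.054 without Pgr gecKO replicate 1.

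Btc, which encodes betacellulin, was at 1.27 and 1.89 CPM in Pgr gecKO uteri and at 1.7 and 2.11 CPM in WT uteri, from 42 and 53 counts against 59 and 74. The groups overlapped, and the log2 fold change was -0.27 (95% interval -1.42 to 0.87). Ereg, which encodes epiregulin and is known from the mouse implantation site, had only 5 and 4 counts in Pgr gecKO uteri and 15 and 4 counts in WT uteri. Its total of 28 counts left it out of the TPM table, in which every gene has at least 51, and out of the test. The ratio of normalised counts was 0.541, with an exact binomial 95% interval from 0.216 to 1.26 that covers counting error only. One WT library carried most of the WT counts, and the other was level with Pgr gecKO. Epgn, Ereg, Areg and Btc are consecutive protein-coding genes on mouse chromosome 5 in the GRCm38.p6 RefSeq annotation, yet 1 of the 4, Areg, held most of their counts in every library.

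Areg RNA made up 70.2% and 49.7% of the summed TPM of Areg, Tgfa, Hbegf and Btc in Pgr gecKO uteri, and 71.7% and 69.5% in WT uteri. The Pgr gecKO replicate 2 share stood apart from the other 3 libraries, which were within a few percentage points of each other. The summed TPM of these 4 ligands was 51.8 and 29.7 in Pgr gecKO uteri and 64.4 and 48.4 in WT uteri, and the groups overlapped.

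Of the receptors, Erbb3 was lower and Erbb2 higher in both Pgr gecKO libraries, in neither case past the test. Erbb3, the neuregulin receptor, was at 62.8 and 32.9 CPM in Pgr gecKO uteri and at 76.7 and 73.6 CPM in WT uteri. The WT libraries lay close together, Pgr gecKO replicate 1 was a little below them and Pgr gecKO replicate 2 far below. The log2 fold change of -0.65 (SE 0.32, 95% interval -1.41 to 0.11) had the smallest unadjusted p of the 8 members, 0.0826, with adjusted p = 1.0 (edgeR). Without Pgr gecKO replicate 2 it was -0.26, and without Pgr gecKO replicate 1 it was -1.19.

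Erbb2, the partner receptor without a ligand of its own, was at 76.1 and 73.9 CPM in Pgr gecKO uteri and at 58.2 and 70.7 CPM in WT uteri. Both Pgr gecKO libraries were above both WT libraries in CPM, but in TPM, at 48.3 and 40.6 against 35.7 and 43.5, the groups overlapped. The log2 fold change was 0.22 (SE 0.21, 95% interval -0.28 to 0.72). An annotated gene on the opposite strand, Mien1, overlaps Erbb2 and had 6328 counts over the 4 libraries, and with the strand setting of the counting not given, reads of the 2 genes cannot be told apart where they overlap.

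Egfr, the receptor of Areg, Tgfa, Hbegf, Btc and Ereg, was at 77.4 and 80.7 CPM in Pgr gecKO uteri and at 95.2 and 79.2 CPM in WT uteri. WT replicate 1 was above the other 3 libraries, which were level. The fold change of 0.906 had a 95% interval from 0.641 to 1.28. Fewer cells of a type and less RNA per cell cannot be told apart in whole uterus, for this or any other member.

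The makeup of the receptor RNA is given on the TPM scale as a description, in ratios chosen after their values were seen and without a test. Erbb2 made up 45.8% and 53.0% of the summed TPM of Egfr, Erbb2 and Erbb3 in Pgr gecKO uteri and 34.5% and 41.4% in WT uteri. Erbb3 made up 32.7% and 20.4% in Pgr gecKO uteri and 39.4% and 37.3% in WT uteri. Both Pgr gecKO libraries thus had the higher Erbb2 share and the lower Erbb3 share, most so replicate 2, where Erbb3 was low, while the TPM of Erbb2 itself overlapped between the groups. The ratio of Erbb2 to Erbb3 was 1.4 and 2.6 in Pgr gecKO uteri and 0.876 and 1.11 in WT uteri, and the summed receptors were at 105.4 and 76.7 TPM in Pgr gecKO uteri and 103.4 and 105.2 TPM in WT uteri. Egfr took 21.4% and 26.6% in Pgr gecKO uteri and 26.0% and 21.3% in WT uteri, a full overlap.

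**Figure D3:**
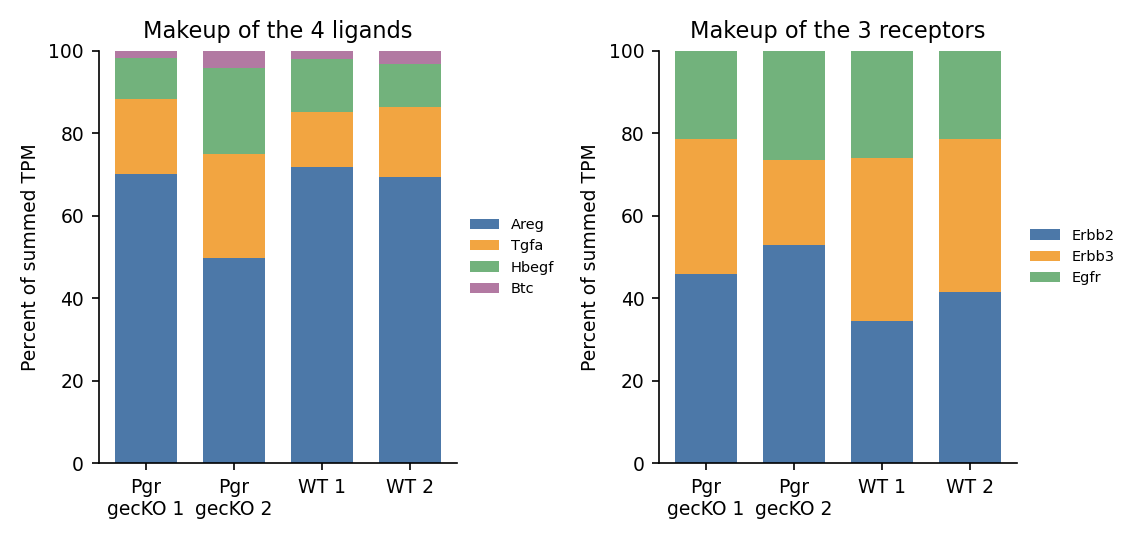
Share of summed TPM (y axis, percent) in each library for the ligands Areg, Tgfa, Hbegf and Btc (left) and the receptors Erbb2, Erbb3 and Egfr (right), Pgr gecKO libraries first. Areg takes 49.7% of the ligands in Pgr gecKO replicate 2 and 69.5% to 71.7% in the other 3 libraries, and Erbb2 takes 45.8% and 53.0% of the receptors in Pgr gecKO uteri against 34.5% and 41.4% in WT uteri.

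Errfi1, which binds and silences active EGFR, was at 228.3 and 271.4 CPM in Pgr gecKO uteri and at 198.3 and 172.1 CPM in WT uteri. Both Pgr gecKO libraries exceeded both WT libraries, in CPM and in TPM. The log2 fold change was 0.43 (SE 0.24, 95% interval -0.14 to 1.0, unadjusted p = 0.116 and adjusted p = 1.0 by edgeR), and it ranged from 0.31 to 0.55 with any 1 library left out. Relative to the epithelial markers it also separated the groups, at 179.0 and 165.7 CPM per 1000 in Pgr gecKO uteri and 153.0 and 113.1 in WT uteri. The exact permutation p was 0.333, the smallest the design allows. Btc also separated on this ratio, lower at 0.995 and 1.15 in Pgr gecKO uteri against 1.31 and 1.39 in WT uteri. The other members overlapped on it, among them Erbb3 (49.2 and 20.1 in Pgr gecKO uteri, 59.2 and 48.4 in WT uteri) and Erbb2 (59.7 and 45.1, against 44.9 and 46.4). Within each library Errfi1 TPM was 9.33 and 10.6 times that of Egfr in Pgr gecKO uteri and 6.58 and 6.87 times in WT uteri, a ratio again chosen after its values were seen. Areg and Errfi1, whose promoters above share both motifs, had fold changes of opposite sign, neither past the test.

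The members differed in the shape of their profiles over the 4 libraries. With log2 CPM centred on each gene's mean, the member nearest to Areg was Erbb3, at a root mean square difference of 0.152, and the reverse held. Among the genes of the pathway lists, the nearest to both was Etv5, an ETS transcription factor gene that responds to MAP kinase, at 0.071 from Areg and 0.138 from Erbb3. All 3 genes were lowest in Pgr gecKO replicate 2 and highest in WT replicate 1, over 4 libraries that are too few for a correlation. Etv5 was at 43.3 and 23.2 CPM in Pgr gecKO uteri and at 62.6 and 45.9 CPM in WT uteri. The nearest to Hbegf were Ccnd1 (0.07) and Junb (0.114), to Errfi1 Rhbdf1 (0.067) and Shc1 (0.098), to Egfr Nras (0.04) and Map2k1 (0.057), to Tgfa Pik3r1 and Map2k2 (0.052 each), to Erbb2 Lrig1 (0.103), and to Btc Nrdc (0.204) and Cbl (0.214).

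**Figure D4:**
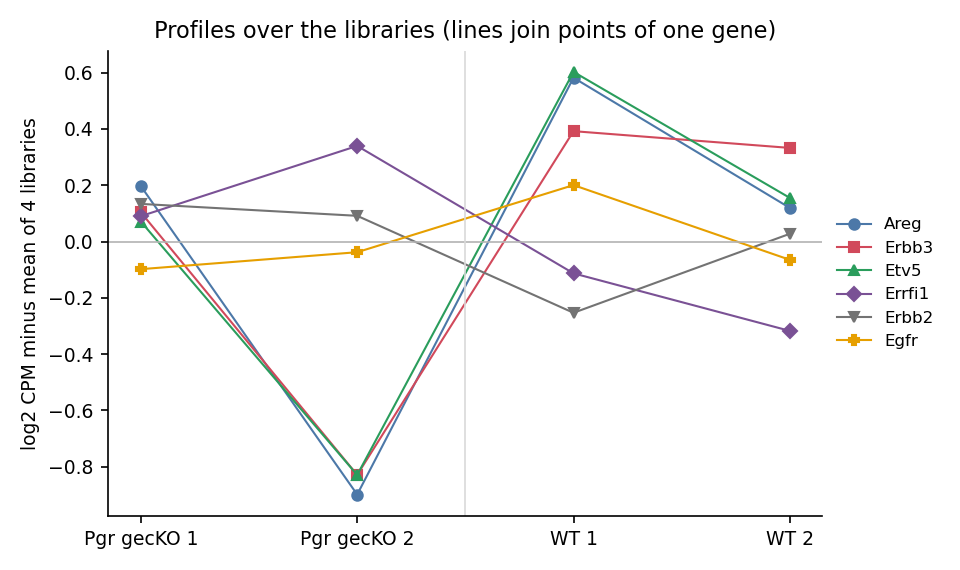
Centred log2 CPM (y axis) of Areg, Erbb3, Etv5, Errfi1, Erbb2 and Egfr in the 4 libraries, Pgr gecKO first, each gene's points joined by a line. Areg, Erbb3 and Etv5 share a low point in Pgr gecKO replicate 2, where Errfi1 has its highest value.

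The gap between the Pgr gecKO libraries was 1.08 log2 units for Areg and 0.93 for Erbb3, replicate 1 above replicate 2. Of the 13319 genes averaging 5 CPM or more, 5.0% had a gap between these libraries as large as that of Areg, and 8.08% as large as that of Erbb3. The gland transcription factor gene Foxa2, named after its values were seen, showed a gap of 1.29, at 13.5 and 5.49 CPM in Pgr gecKO uteri and at 13.5 and 15.7 CPM in WT uteri. Foxa2 does not stand for the gland list, in which 3 of 8 markers were higher in Pgr gecKO replicate 1 than in replicate 2 (Foxa2, Sox9 and Spink1), 4 were lower, among them Cxcl15 at 35.7 and 72.6 CPM, and Prss29 was at 0 in both. Of the 6 general epithelial markers, 5 were lower in Pgr gecKO replicate 1, by little for Cdh1 at 332.7 and 341.3 CPM and by more for Krt19 at 185.4 and 339.1 CPM and Cldn7 at 103.2 and 195.5 CPM, and Krt18 was higher at 220.8 and 206.6 CPM. The 8 gland markers summed to 96.6 and 101.6 CPM in Pgr gecKO uteri and 176.2 and 174.5 CPM in WT uteri. That sum holds Prss29, the Cre locus, at 43.9 and 5.41 CPM in WT uteri. Of the 8, 7 had a log2 fold change below 0 and 6 were lower without overlap, against 48.9% and 13.1% of all genes. Both the 7 and the 6 include Prss29, whose alleles are altered in Pgr gecKO. The list was chosen with earlier results of these data known. The 6 epithelial markers summed to 1275.5 and 1638.3 CPM in Pgr gecKO uteri and 1295.6 and 1522.2 CPM in WT uteri. Macrophage markers summed to 262.9 and 313.4 CPM in Pgr gecKO uteri and 361.1 and 510.2 CPM in WT uteri. All 5 of 5 had a log2 fold change below 0, and 4 were lower without overlap. Mast cell markers summed to 3.54 and 16.1 CPM in Pgr gecKO uteri and 32.4 and 13.9 CPM in WT uteri. There 4 of 4 were below 0, and 2 did not overlap. Lower with an unadjusted edgeR p under 0.05 were 5 gland, 3 macrophage and 0 mast cell markers, against 1.79% of all genes. The 5 again include Prss29. Smooth muscle markers, whose sums are given above, had 6 of 6 above 0 with a median of 0.601, and adipocyte markers 3 of 3 above 0 with a median of 2.484, and in each of these 9 the groups overlapped. The part of gland, macrophage, mast cell, muscle or adipocyte RNA in the members' values was not tested.

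The other EGF family ligands were at low to moderate level or near 0 counts, and 0 of the 4 that could be tested were called in either direction. Nrg4, a neuregulin, was the highest at 25.1 and 22.8 CPM in Pgr gecKO uteri and 23.9 and 37.2 CPM in WT uteri, and WT replicate 2 alone stood out. Nrg2 was at 10.7 and 7.49 CPM in Pgr gecKO uteri and 5.61 and 6.87 CPM in WT uteri, without overlap in CPM but with overlap in TPM, with a log2 fold change of 0.55 (95% interval -0.28 to 1.37). Nrg1 and Egf were below 3 CPM in every library, with log2 fold changes of 0.33 and -0.09 whose intervals were more than 2 log2 units wide. Epgn had 2 and 4 counts in Pgr gecKO uteri and 3 and 0 in WT uteri, and Nrg3 had 0 counts in all libraries, which allows up to 0.0907 and 0.107 CPM in Pgr gecKO uteri and 0.0863 and 0.0855 CPM in WT uteri. Erbb4, the remaining receptor, had 2 and 3 counts in Pgr gecKO uteri and 3 and 2 in WT uteri, at or near that same limit of 3 counts.

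Genes acting before and after the receptors were taken from 4 further lists, and 0 of the 59 tested genes in all pathway lists together were called in either direction. Of these 59, 1 had an unadjusted p under 0.05, Ier3. Libraries did not overlap in 18 genes, 6 higher and 12 lower in Pgr gecKO uteri, where 12.2% and 13.1% of all genes did so, and the median log2 fold change was -0.036. Among 8 shedding genes, with a median of -0.066, the ligand sheddase gene Adam17 was at 72.8 and 65.7 CPM in Pgr gecKO uteri and 90.8 and 82.6 CPM in WT uteri. Rhbdf1, which encodes iRhom1, a carrier of ADAM17, was at 70.4 and 83.1 CPM in Pgr gecKO uteri and 68.2 and 54.7 CPM in WT uteri. Adam17 was thus lower and Rhbdf1 higher in both Pgr gecKO libraries, and neither passed. Adam10, the highest of the list in mean TPM over the 4 libraries though just below Timp3 in both Pgr gecKO libraries, was at 170.5 and 177.4 CPM in Pgr gecKO uteri and 177.4 and 161.2 CPM in WT uteri.

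The 19 relay genes had a median log2 fold change of 0.008 and all lay between -0.27 for Pik3ca, a PI3 kinase catalytic subunit, and 0.24 for Shc1, an adaptor of activated receptors. Mapk3, the highest of the list in mean TPM over the 4 libraries, was at 208.2 and 142.7 CPM in Pgr gecKO uteri and 163.6 and 168.7 CPM in WT uteri, with both WT libraries between the Pgr gecKO libraries. Of the 17 feedback inhibitors, 6 were lower and 1 higher without overlap in CPM, against 13.1% and 12.2% of all genes, while the median was 0.02. Spry4, a Sprouty inhibitor of receptor tyrosine kinase signalling, was at 8.19 and 6.56 CPM in Pgr gecKO uteri and 20.8 and 8.21 CPM in WT uteri. Pgr gecKO replicate 1 was level with WT replicate 2, and in TPM, at 5.69 and 3.95 in Pgr gecKO uteri and 14.0 and 5.54 in WT uteri, the groups overlapped. The log2 fold change of -0.97 became -0.14 without WT replicate 1 and -1.49 without WT replicate 2.

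Dusp6, an ERK phosphatase gene, was at 36.6 and 31.3 CPM in Pgr gecKO uteri and 48.2 and 43.9 CPM in WT uteri, with a log2 fold change of -0.44 (95% interval -0.95 to 0.07). Spry2, the inhibitor with the highest mean TPM over the 4 libraries, was at 37.2 and 23.2 CPM in Pgr gecKO uteri and 33.8 and 37.2 CPM in WT uteri. Its groups overlapped, while those of Dusp6 did not.

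Of 11 MAP kinase-responsive genes, 9 had a log2 fold change below 0, as did 48.9% of all genes tested, and the median was -0.298. That median was 0.058 without WT replicate 1, -0.613 without WT replicate 2, -0.566 without Pgr gecKO replicate 2 and -0.223 without Pgr gecKO replicate 1. Ier3, an immediate early gene, was at 36.0 and 30.6 CPM in Pgr gecKO uteri and 50.9 and 56.5 CPM in WT uteri, with a log2 fold change of -0.69 (SE 0.22, unadjusted p = 0.016, adjusted p = 1.0 in edgeR). The groups did not overlap, and the estimate ranged from -0.81 to -0.57 with any 1 library left out. Etv4, an ETS factor gene related to Etv5, was at 1.18 and 0.784 CPM in Pgr gecKO uteri and 2.53 and 1.82 CPM in WT uteri, with a log2 fold change of -1.14 (95% interval -2.34 to 0.05). Myc, with the highest mean TPM of the list over the 4 libraries, was at 152.3 and 108.3 CPM in Pgr gecKO uteri and 170.6 and 126.2 CPM in WT uteri, and its groups overlapped.

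**Figure D5:**
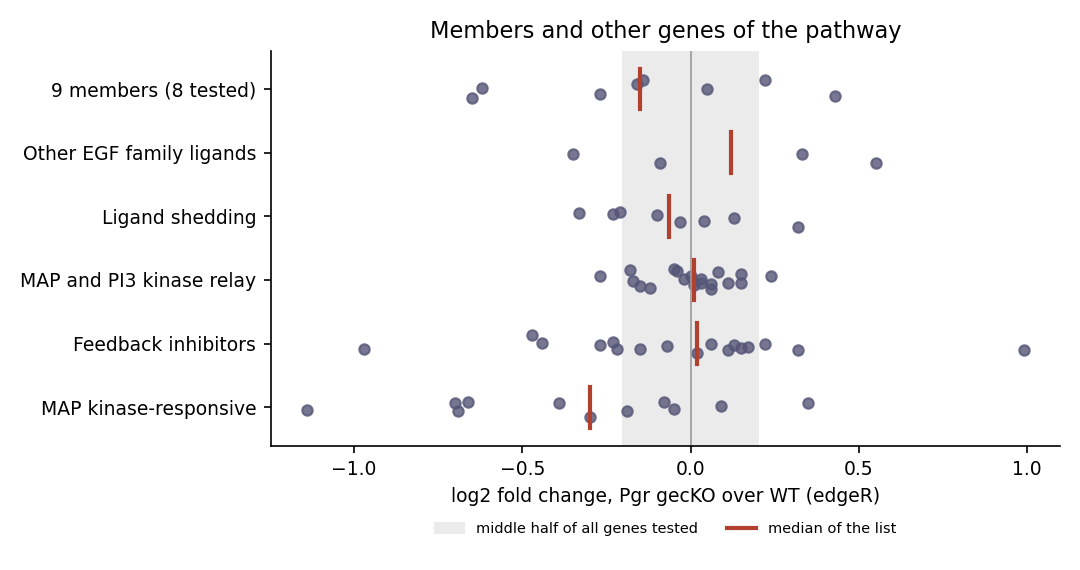
Log2 fold change (x axis, Pgr gecKO over WT, edgeR) of each tested gene of the EGF family and of 4 pathway lists, 1 point per gene, with the list median as a red line. The grey band runs from the lower to the upper quartile of all genes tested, -0.2 to 0.2, and only the median of the MAP kinase-responsive genes, -0.298, lies outside it.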

How the data were processed

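RNA from whole uterus was sequenced in 2 Pgr gecKO and 2 WT libraries. Per the submitters' processing notes, Trimmomatic, STAR, featureCounts and genome GRCm39 were used. Versions, annotation and strand setting were not given in the sources used here. The authors deposited raw counts and, for genes with a total count of at least 51, TPM, which equal count over gene length rescaled to a fixed sum, to within 3.8e-11. Columns were matched by the names in the labels. Counts were tested with the quasi-likelihood test of edgeR 4.0.16 in R 4.3.3 (group as the only term, TMM, filterByExpr at minimum count 10 and total 15, Benjamini-Hochberg over 20950 genes, threshold 0.05), with 2 residual degrees of freedom and a biological coefficient of variation of 0.309. Intervals are 95% Wald intervals from the fit. The procedure was tested on simulated data. Genes named are the 9 members, other family members, and per pathway list the 2 with the smallest p and the 1 with the highest TPM, besides the nearest profiles (log2 CPM, prior count 2), of which 1 is not reported here. Members and lists were chosen with earlier results of these data known. The fit was repeated with DESeq2 1.42.0, with limma-voom (limma 3.58.1), with upper-quartile or RLE scaling, with limma on log2 TPM with pseudocounts 1 and 0.1, with 2 other filters, with a replicate block and without each library. Counting intervals and floors of 3 counts cover counting error only, since reads without molecular identifiers are not independent molecules.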

Additional observations from a re-analysis of the deposited data

How the results depend on the processing

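No member and no gene of the pathway lists was called under any alternative run, the smallest adjusted p being 0.251 for the members and 0.167 for the lists, both without Pgr gecKO replicate 1. Over all genes, 1 was called higher and 0 lower, against 35 and 19 when no low-count filter was used, 44 and 46 by DESeq2, 3 and 0 with log2(TPM + 1), 6 and 0 with log2(TPM + 0.1), and 0 and 0 with limma-voom and with edgeR under the stricter filter, where 602 and 456 genes in that order had an unadjusted p under 0.05 (630 in the edgeR fit reported). Leaving out 1 library gave 10 to 39 higher and 4 to 22 lower. The replicate numbers are not stated to pair libraries, and deviations of same-numbered libraries correlated at -0.444 across genes. With the replicate block 22 were higher and 10 lower, and with the numbers crossed, an alternative added after seeing the data, 22 higher and 15 lower. Signs near 0 turned. With log2(TPM + 1) and log2(TPM + 0.1), Tgfa was at -0.0045 and -0.0057, Adam10 at -0.018 in both, and Mapk3 at -0.0052 and -0.0054. With 1 library left out, log2 fold changes ranged from -0.49 to 0.26 for Hbegf, from -0.27 to 0.012 for Egfr, from -0.19 to 0.0091 for Egf, from -0.17 to 0.71 for Nrg1, from -0.62 to 0.0046 for Nrg4, from -0.029 to 0.12 for Adam10, from -0.22 to 0.33 for Mapk3, from -0.61 to 0.07 for Spry2, from -0.45 to 0.058 for Myc and from -0.098 to 0.069 for Pgr. The cause was not tested. Areg, Erbb3, Erbb2 and Errfi1 kept their sign in every alternative other than the crossed numbers, for which only calls were counted. Btc ranged from -0.58 to -0.0092 with 1 library left out. With 2 libraries a group and single-gene intervals about 1 log2 unit wide at the narrowest, small differences were not detectable. Much larger ones could also go uncalled in edgeR. The gland marker Ttr, at a log2 fold change of -4.02, had an adjusted p of 0.237 by the edgeR quasi-likelihood test. Prss29, with 0 and 0 counts in Pgr gecKO uteri against 1524 and 190 in WT uteri, had an adjusted p of 0.386 by that test. DESeq2 called both genes lower, with adjusted p of 8.92e-09 for Ttr and 0.00727 for Prss29, while it called 0 members.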
